A study of Mus musculus with 6 samples.

Results

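The genes described here encode 10 enzymes that make serine and pass its carbon through the folate pathway in cytosol and mitochondria: Phgdh, Psat1, Psph, Shmt1, Shmt2, Mthfd1, Mthfd1l, Mthfd2, Aldh1l1 and Aldh1l2. They were chosen by gene symbol, and all 10 were found once each among the 32544 genes of the deposited table. RNA came from hand-dissected S2 and S3 segments of the proximal tubule of C57Bl/6 mice described as control animals. The AA group of 3 libraries was taken 24 h after 1 injection of aristolochic acid I, a plant nephrotoxin that forms DNA adducts, at a stated dose of 3 mg/kg. The DMSO group of 3 libraries had the solvent alone and was taken at the same time. From each kidney 5 to 10 tubules were pooled. Neither the age nor the sex of the mice is given in the labels, and nothing there ties each library to an animal of its own, so p-values measure the spread between these libraries, which may be technical.

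Serine is built from an intermediate of glycolysis by Phgdh, Psat1 and Psph in turn, and the proximal tubule is known as a site where the kidney makes serine for the blood. In mitochondria Shmt2 splits serine into glycine and a one-carbon unit held on tetrahydrofolate, Mthfd2 or its relative Mthfd2l oxidises that unit, and Mthfd1l releases it as formate. In the cytosol Mthfd1 puts formate back on folate for purine and thymidylate synthesis, Shmt1 interconverts serine and glycine, and Aldh1l1 burns surplus units to CO2, as Aldh1l2 does in mitochondria. Several of these genes, among them Phgdh, Psat1, Shmt2 and Mthfd2, are known targets of ATF4, the transcription factor of the integrated stress response.

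Depth ran from 13304877 to 17815915 counted reads in the AA libraries and from 15958557 to 31136251 in the DMSO libraries. Proximal tubule markers were abundant, as labelled. The 15 tested summed to 11396 to 14597 CPM (reads scaled to a common library total) in AA and 18904 to 27284 CPM in DMSO. In AA 1 marker was higher, Slc5a2 (log2 fold change 0.71), and 6 were lower, or 0 and 7 with libraries scaled to equal medians. Among the DMSO libraries 12 of the 15 were lowest in replicate 3 (80%, against 29.5% of all tested genes). The part of the lower proximal tubule marker level of AA in the lower calls below was not tested. Markers of the thick ascending limb and distal convoluted tubule summed to 321, 1320 and 722 CPM in AA replicates 1, 2 and 3, and to 191 to 489 CPM in DMSO. Those of the collecting duct summed to 41.0 to 87.4 CPM in AA and 15.8 to 32.5 CPM in DMSO. Markers of fibroblasts and mural cells summed to 132 to 153 CPM in AA and 70.7 to 96.4 CPM in DMSO, and those of endothelium to 235 to 265 CPM in AA and 154 to 226 CPM in DMSO. Podocyte markers summed to 54.4 to 91.4 CPM in AA and 37.5 to 63.6 CPM in DMSO. Of 6 leukocyte markers 3 were higher and 0 lower: Cd68 had 28.4 ± 9.30 CPM in AA and 0.933 ± 0.484 CPM in DMSO (SD, n = 3 each, log2 fold change 3.91), Lyz2 had a log2 fold change of 1.21 and Cd79a one of 1.30. Lyz2 and Cd79a were at low levels, with means of 5.78 and 2.02 CPM in AA and 1.77 and 0.189 CPM in DMSO. Ptprc (log2 fold change 0.31) and Adgre1 (0.45) were not called. The leukocyte sums (159 to 214 CPM in AA, 175 to 266 CPM in DMSO) were mostly Csf1r, which was not called (-0.50). With libraries scaled to equal medians Csf1r was called lower (-0.76). The part of these cells in the enzyme values was not tested. DMSO replicates 1 and 2 stood apart from DMSO replicate 3 and all AA libraries by more than 2 on the log2 scale for 40 tested genes, of which 38 have predicted-gene or pseudogene symbols and 0 are among the 10 enzymes. Values against DMSO replicate 3 alone are therefore given for the enzymes below, where that replicate is the only control left.

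Of the 10 enzyme genes, 3 were lower in AA (Phgdh, Shmt2 and Aldh1l2), 0 were higher and 7 did not pass, in limma's moderated test adjusted over 14311 genes at 0.05. Across all tested genes 8.66% were called lower and 22.3% higher. Without adjustment 4 of the 10 were lower and 1, Psat1, was higher at that threshold. Of all 14311 genes, 6171 passed without adjustment, in either direction. Limma's voom on the recovered reads called 3 of the 10 lower and 0 higher, beside 1175 lower and 3191 higher of all 14311 genes. The median log2 fold change was -0.21 over the 10 genes, against 0.21 over all tested genes. All 10 passed the filter of 1 CPM in 3 libraries, and none was under 1 CPM in any library. AA and DMSO values did not overlap for 6 of the 10, against 46.4% of all tested genes. When libraries were scaled to equal medians, which moved the median of all genes to -0.05, the lower calls numbered 5, with Mthfd1 and Aldh1l1 added, and the higher calls 0, while of all tested genes 16.9% were then called lower and 11.2% higher. In bulk tubules, less RNA per cell and fewer cells of a type cannot be told apart.

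**Figure D1:**
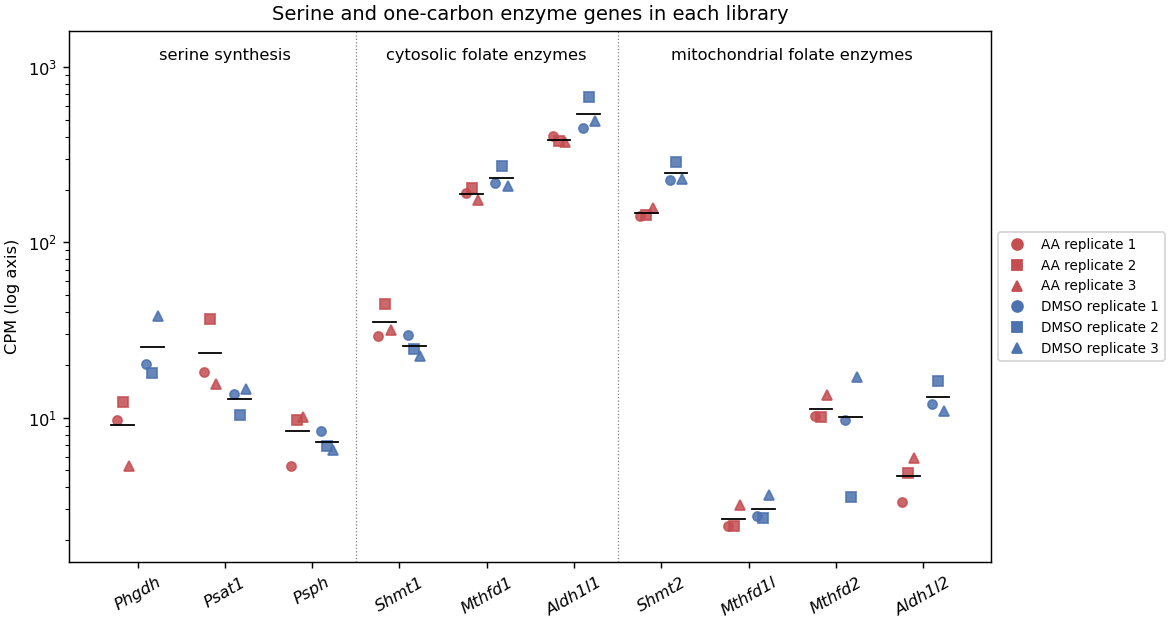
CPM on a log axis for each of the 10 genes in the 3 AA libraries (red) and the 3 DMSO libraries (blue), with a line at each group mean. Phgdh, Shmt2 and Aldh1l2 lie lower in every AA library than in any DMSO library.

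Phgdh, the first and committed enzyme of serine synthesis, had 9.70, 12.2 and 5.31 CPM in AA replicates 1, 2 and 3, against 20.3, 17.9 and 37.9 CPM in DMSO replicates 1, 2 and 3. The groups did not overlap, and DMSO replicate 3 was the highest of all. The log2 fold change was -1.38 (SE 0.32, limma adjusted p = 0.00908), and the means were 9.08 ± 3.50 CPM in AA and 25.4 ± 10.9 CPM in DMSO (SD, n = 3 each). Against DMSO replicate 3 alone, the highest control, the difference was -2.01. A library-set term, which sets DMSO replicates 1 and 2 apart and so leaves that 1 control, gave a limma adjusted p of 0.00592. The gene lies on the minus strand of chromosome 3 from 98313170 to 98339990 (mm10), and read counts behind these values were 74 to 605.

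Psat1, the transaminase of the second step, had 18.3, 36.6 and 15.6 CPM in AA and 13.7, 10.4 and 14.5 CPM in DMSO. All AA values lay above all DMSO values, with AA replicate 2 far above the other two, yet the change did not pass: the log2 fold change was 0.74 (95% interval 0.11 to 1.37, limma adjusted p = 0.0716). Without AA replicate 3 it was 0.97 (limma adjusted p = 0.0415) and without AA replicate 2 it was 0.38 (0.277). It was 0.48 with library medians equalised and 0.56 against DMSO replicate 3 alone. AA replicate 2 was also the library with the most thick ascending limb and collecting duct marker RNA, 1320 and 87.4 CPM, and the part of those cells in the value was not tested. Psph, the phosphatase of the last step, had 5.34, 9.71 and 10.1 CPM in AA and 8.37, 6.87 and 6.52 CPM in DMSO, with overlapping groups. Its log2 fold change was 0.15 (95% interval -0.43 to 0.72), and -0.11 with library medians equalised. Against DMSO replicate 3 alone it was 0.27.

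Within each library the balance of the serine synthesis genes differed between the groups. The log2 ratio of Psat1 over Phgdh was 0.85, 1.51 and 1.39 in AA and -0.54, -0.73 and -1.32 in DMSO. So Psat1 exceeded Phgdh in every AA library and was below it in every DMSO library, in CPM not scaled by gene length. The mean difference was 2.12, and apart from the added 1 CPM it does not depend on how libraries are scaled. For Psph over Phgdh, which shares Phgdh with the first ratio, the difference was 1.52, also without overlap. Each such difference is that between the log2 fold changes of its genes, so no ratio here or below is a separate result. With 3 libraries against 3 the two-sided exact permutation test cannot go below p = 0.1, which both ratios reached (p = 0.15 after adjustment over the 6 ratios compared).

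The promoters of Phgdh, Psat1 and Shmt2 are shown because the first 2 are neighbouring steps whose ratio differed, and the third is the called mitochondrial gene with the most reads. Each is 300 bases from RefSeq (GRCm38.p6, the assembly of mm10), 250 before and 50 after the annotated start, given 5′ to 3′ on the gene's strand. Capitals mark CCAAT on either strand, an antioxidant response element core (TGACNNNGC, here on the other strand) in Phgdh, and a pair of overlapping matches to GCGCATGC, a core of the NRF1 site, in Shmt2.
Phgdh, chr3:98339920-98340219, minus strand: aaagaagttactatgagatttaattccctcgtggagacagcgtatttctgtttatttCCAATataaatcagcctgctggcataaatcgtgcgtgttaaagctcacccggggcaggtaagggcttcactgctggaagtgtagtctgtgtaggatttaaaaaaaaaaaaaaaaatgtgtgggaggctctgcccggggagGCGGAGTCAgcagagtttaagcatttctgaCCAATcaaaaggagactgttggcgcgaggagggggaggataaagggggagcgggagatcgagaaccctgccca
Psat1, chr19:15925010-15925309, minus strand: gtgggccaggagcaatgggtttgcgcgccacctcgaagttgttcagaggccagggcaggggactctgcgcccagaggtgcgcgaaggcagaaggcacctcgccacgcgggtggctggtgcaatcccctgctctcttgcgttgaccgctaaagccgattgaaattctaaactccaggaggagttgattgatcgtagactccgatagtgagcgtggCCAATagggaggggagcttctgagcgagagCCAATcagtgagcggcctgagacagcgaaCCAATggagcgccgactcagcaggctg
Shmt2, chr10:127522395-127522694, minus strand: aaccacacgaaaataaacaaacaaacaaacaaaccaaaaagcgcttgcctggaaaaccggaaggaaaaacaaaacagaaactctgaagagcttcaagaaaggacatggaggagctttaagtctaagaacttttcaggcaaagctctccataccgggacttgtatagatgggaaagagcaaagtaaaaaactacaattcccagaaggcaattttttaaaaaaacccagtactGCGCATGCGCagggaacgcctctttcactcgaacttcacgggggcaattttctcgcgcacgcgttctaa

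Promoters were found for 9 of the 10 genes, with 2 for Psat1. CCAAT was present for 7 of these 9 genes, and 37.4% of all 32817 promoters of this length hold it on either strand. The antioxidant core was present for 2 genes, Phgdh and Psph, against 12.4% of all promoters. In Phgdh it begins 53 bases before the start. The GCGCATGC core, picked after the Shmt2 sequence had been read, was present for 1 gene, against 2.71% of all promoters. TGATGNAA, a core of ATF4 sites, was in the windows of 0 of the 9 genes, against 3.97% of all promoters. TGACGTCA (1.79% of all promoters) and CACGTG (7.15%) were also found for 0 of them. A match or its absence in so short a window is a description of its letters only.

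Shmt2, which feeds serine carbon into mitochondrial folate, had 142, 144 and 156 CPM in AA and 226, 287 and 231 CPM in DMSO. The 3 AA libraries were close together and all below the lowest DMSO library. The log2 fold change was -0.74 (SE 0.14, limma adjusted p = 0.00277), with means of 147 ± 7.97 CPM in AA and 248 ± 33.8 CPM in DMSO (SD, n = 3 each). Against DMSO replicate 3 alone the difference was -0.65, but with the library-set term the call was lost (limma adjusted p = 0.0624). Shmt2 lies on the minus strand of chromosome 10 from 127517123 to 127522444.

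Its cytosolic counterpart Shmt1 had 29.3, 44.2 and 31.5 CPM in AA and 29.7, 24.8 and 22.5 CPM in DMSO, with overlapping groups and a log2 fold change of 0.42 (95% interval -0.0023 to 0.84, limma adjusted p = 0.118). AA replicate 2 was again the highest, and without it the value was 0.24. It was 0.16 with library medians equalised and 0.59 against DMSO replicate 3 alone. Smcr8, on the opposite strand, shares 184 exonic bases with Shmt1 and rose to 162 ± 36.9 CPM in AA, against 75.4 ± 3.58 CPM in DMSO (log2 fold change 1.07). The library kit keeps strand, but whether the counting used it is not given in the sources used here, so the part of Smcr8 reads in the Shmt1 value was not tested. The log2 ratio of Shmt2 over Shmt1 within a library was 2.23, 1.68 and 2.28 in AA and 2.89, 3.48 and 3.30 in DMSO. It was lower in every AA library, with a mean difference of -1.16 (exact permutation p = 0.1, the smallest possible, and 0.15 adjusted over the 6 ratios).

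**Figure D2:**
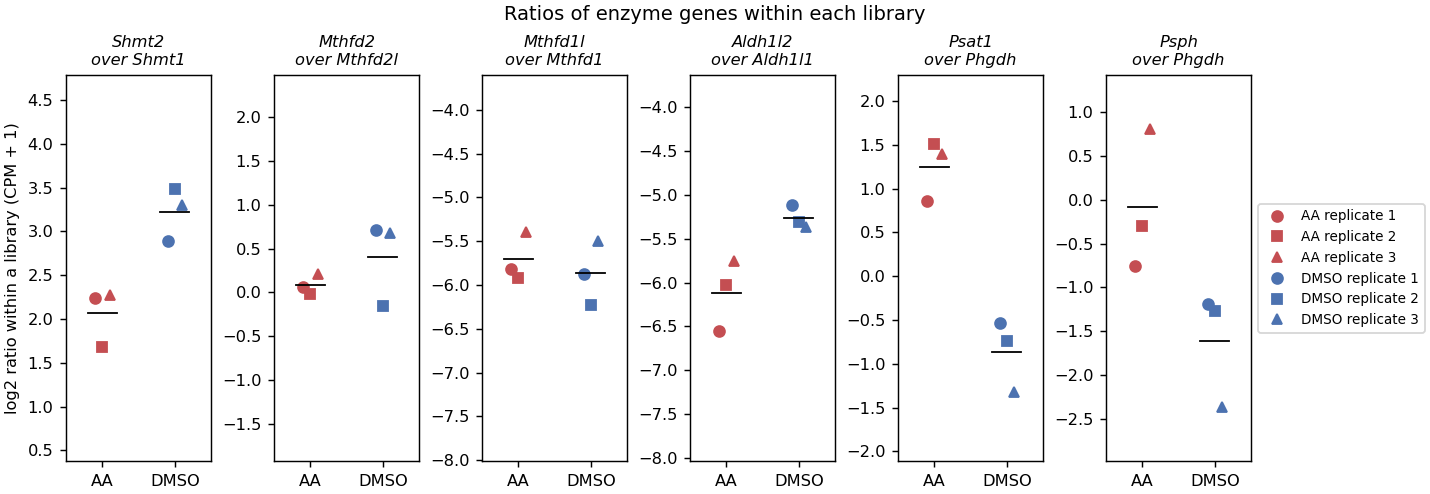
Log2 ratios of 2 enzyme genes within each AA (red) and DMSO (blue) library, with a line at each mean; every panel spans the same height of the log2 scale. Psat1 over Phgdh and Psph over Phgdh are higher in AA, Shmt2 over Shmt1 and Aldh1l2 over Aldh1l1 are lower, and the other ratios overlap.

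Mthfd2, the mitochondrial dehydrogenase best known from dividing cells, had 10.2, 10.05 and 13.4 CPM in AA and 9.67, 3.53 and 17.1 CPM in DMSO. The spread within DMSO, where replicate 2 was lowest and replicate 3 highest, covered the AA values. The log2 fold change was 0.34 (95% interval -0.55 to 1.23), -0.20 without DMSO replicate 2, 0.80 without DMSO replicate 3 and -0.58 against DMSO replicate 3 alone. Mthfd2l, which catalyses the same step in adult tissues, had 9.77, 10.2 and 11.5 CPM in AA and 5.52, 4.05 and 10.3 CPM in DMSO (log2 fold change 0.67, limma adjusted p = 0.101, and 0.01 against DMSO replicate 3 alone). The log2 ratio of Mthfd2 over Mthfd2l overlapped between the groups and differed by -0.33 (exact permutation p = 0.4). Mthfd1l, the formate-releasing enzyme, was the lowest per length in both groups, at 2.41, 2.41 and 3.16 CPM in AA and 2.76, 2.67 and 3.63 CPM in DMSO. It rested on 32 to 83 reads, and its log2 fold change of -0.13 had a 95% interval of -0.68 to 0.42. Against DMSO replicate 3 alone it was -0.35, with library medians equalised -0.39, and without AA replicate 3 it was -0.23.

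Aldh1l2, the mitochondrial formyl-folate dehydrogenase, had 3.31, 4.83 and 5.89 CPM in AA and 12.0, 16.2 and 10.97 CPM in DMSO. Every AA library was lower than every DMSO library. The log2 fold change was -1.32 (SE 0.25, limma adjusted p = 0.00335), or -1.10 against DMSO replicate 3 alone, where the library-set term ended the call (limma adjusted p = 0.0712). This level is uncertain. Of 7503 exonic bases of Aldh1l2, 1056 are shared with D10Wsu102e on the opposite strand, which had 2276 ± 466 CPM in AA and 2784 ± 193 CPM in DMSO and did not pass (log2 fold change -0.31, limma adjusted p = 0.277). The part of D10Wsu102e reads in the Aldh1l2 values was not tested. Psph shares 452 exonic bases with Cct6a, and Aldh1l1 499 with the antisense gene Gm15756, both on the opposite strand.

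Aldh1l1, the cytosolic form, was the most abundant of the 10 per length, with 405, 379 and 372 CPM in AA and 450, 677 and 491 CPM in DMSO. The groups did not overlap, but the log2 fold change of -0.46 (95% interval -0.83 to -0.10) missed the threshold (limma adjusted p = 0.055). It passed with library medians equalised (-0.72, limma adjusted p = 0.0087), with TMM scaling factors (0.0124) and without DMSO replicate 1 (0.0398). It was -0.29 without DMSO replicate 2 (limma adjusted p = 0.14) and -0.35 against DMSO replicate 3 alone (0.369). Mthfd1, which joins formate to cytosolic folate, had 191, 205 and 174 CPM in AA and 219, 273 and 209 CPM in DMSO. Its groups also lay apart, with AA replicate 2 just below DMSO replicate 3, and its log2 fold change was -0.29 (95% interval -0.61 to 0.02, limma adjusted p = 0.142). With library medians equalised it was -0.55 (limma adjusted p = 0.0153), without DMSO replicate 2 it was -0.18 (0.347) and against DMSO replicate 3 alone -0.14 (0.698). The log2 ratio of Aldh1l2 over Aldh1l1 was lower in every AA library, with a mean difference of -0.85, or -0.44 with 5 CPM added in place of 1 (exact permutation p = 0.1 for the first), whereas Mthfd1l over Mthfd1 differed by 0.16 with overlap (p = 0.6).

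**Figure D3:**
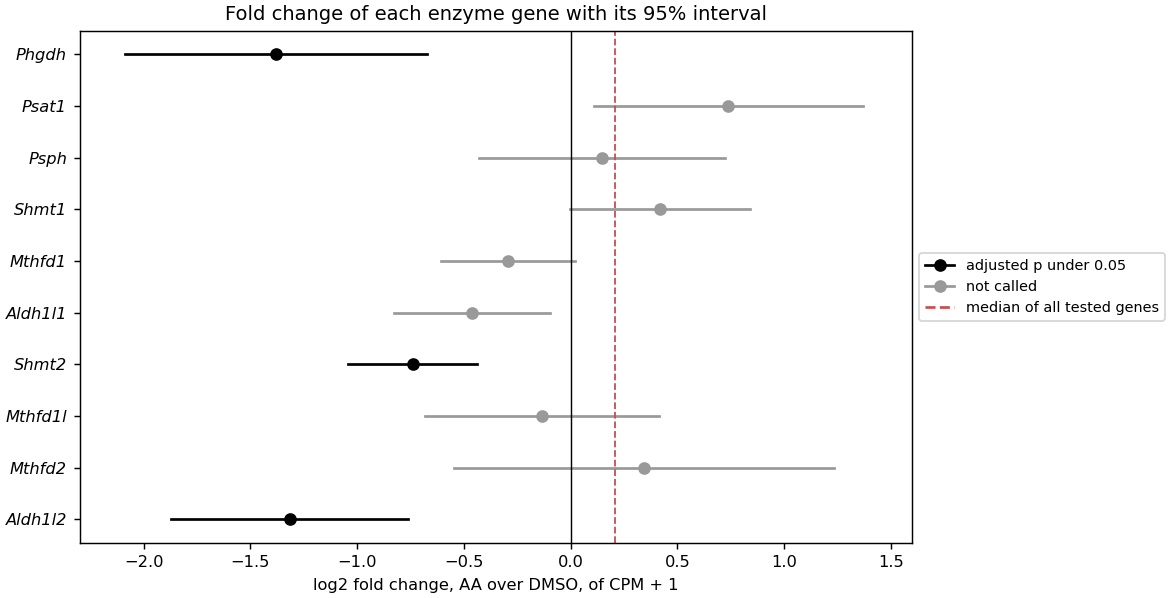
Log2 fold change of CPM + 1, AA over DMSO, for each gene with its 95% interval from limma (black, adjusted p under 0.05; grey, not called). The dashed line marks the median of all tested genes, 0.21; the intervals of Phgdh, Shmt2, Aldh1l2 and the uncalled Aldh1l1 lie wholly below 0, and that of the uncalled Psat1 wholly above 0.

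Levels can be compared between genes only per length, here CPM per kb of exonic sequence in GENCODE M21. That length joins all annotated exons of a gene and can exceed that of the transcript present, so close places may depend on it. In AA the order began with Aldh1l1 (85.3 ± 3.79), Shmt2 (47.4 ± 2.56) and Mthfd1 (42.7 ± 3.50), and in DMSO with the same 3 genes at 119 ± 26.8, 79.8 ± 10.9 and 52.6 ± 7.71 CPM per kb (SD, n = 3 each). Shmt2 and Mthfd1 overlapped in AA and were separate in DMSO. All other members were at most 11.4 CPM per kb in any AA library and 15.2 in any DMSO library. Phgdh came after Psat1 in AA (3.65 ± 1.41 CPM per kb), not separate from Psat1 above it or Mthfd2 below it, and directly after Mthfd1 in DMSO (10.2 ± 4.39), separate from Mthfd1 but not from Shmt1 below it. Psat1 was at 5.53 ± 2.68 CPM per kb in AA and 3.02 ± 0.517 in DMSO. At the bottom, Mthfd1l (0.600 ± 0.0977) overlapped Aldh1l2 (0.623 ± 0.173) in AA, while in DMSO Mthfd1l (0.681 ± 0.120) was separate from Psph (1.68 ± 0.227) above it.

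Summed per length over each compartment, the 4 mitochondrial folate genes gave 49.5, 50.4 and 55.7 CPM per kb in AA and 77.8, 96.1 and 81.5 in DMSO, most of it Shmt2. The 3 cytosolic folate genes gave 140, 141 and 130 CPM per kb in AA and 157, 218 and 162 in DMSO. Both sums were lower in every AA library. The cytosolic sum was mostly Aldh1l1 and Mthfd1, which were not called on values as deposited. Shmt1, also not called, had a log2 fold change of 0.42. The 3 serine synthesis genes gave 9.44, 15.8 and 8.12 CPM per kb in AA and 13.3, 11.2 and 20.2 in DMSO, and overlapped.

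**Figure D4:**
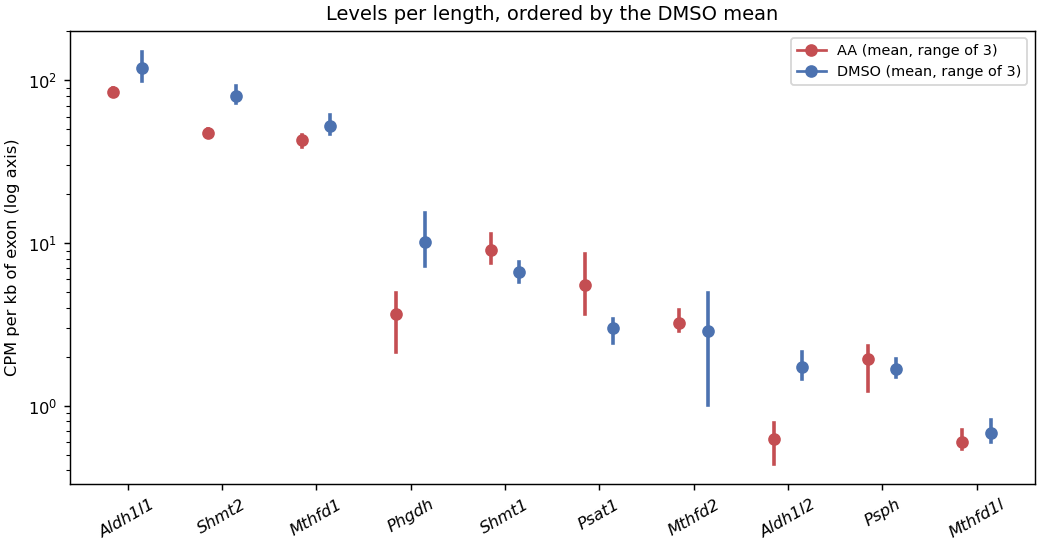
CPM per kb of exon on a log axis, with the mean (point) and the range (line) of 3 AA (red) and 3 DMSO (blue) libraries, ordered by the DMSO mean. Aldh1l1, Shmt2 and Mthfd1 stand above the other 7 genes in both groups, and Phgdh and Aldh1l2 have lower places in AA.

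The 3 named genes whose log2 values followed those of Shmt2, the member with the smallest adjusted p, most closely over the 6 libraries were Sfxn5 (Pearson r = 0.998), Tram2 (0.998) and Kcnh1 (0.997). Sfxn5, a sideroflexin of the mitochondrial membrane, had 30.7, 33.6 and 36.5 CPM in AA and 56.6, 78.8 and 58.3 CPM in DMSO. With 6 libraries in 2 groups, such values mainly say that a gene shares the group difference and the high DMSO replicate 2 with Shmt2. Among the 10 enzymes, Shmt2 followed Aldh1l2 (r = 0.977) and Aldh1l1 (r = 0.906), and ran against Psat1 (r = -0.77).

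Genes of neighbouring pathways were counted by lists. Every list count below is to be read beside all tested genes, of which 22.3% were higher and 8.66% lower (median log2 fold change 0.21). On equalised library medians these shares were 11.2% and 16.9%. Atf4 itself rose to 78.8, 93.7 and 120 CPM in AA, against 51.0, 36.0 and 39.6 CPM in DMSO, with log2 fold change 1.18 (SE 0.18) and limma adjusted p = 0.00114. Of 33 tested ATF4 targets outside serine synthesis, 11 rose and 3 fell in AA and 19 were not called (median log2 fold change 0.35). Gdf15, a stress cytokine (log2 fold change 4.22), Atf3, a stress transcription factor (3.81), and Slc3a2, the heavy chain of amino acid exchangers (2.09), were among the higher genes. Atf3 had means of 21.9 CPM in AA and 0.428 CPM in DMSO. The latter is below the added 1 CPM, so the size of its fold change depends on that added value. The lower genes were Slc1a4, a transporter of serine and other neutral amino acids (-0.68), Vldlr, a lipoprotein receptor (-0.56), and Slc7a11, the cystine transporter (-0.79). The calls of Vldlr and Slc7a11 were lost with the library-set term. So were those of the higher genes Slc38a2, Nupr1, Slc7a5, Aars and Cars. Gdf15, Atf3 and Atf4 also answer to other stress pathways, so the list is not a measure of ATF4 alone. On equalised library medians the counts were 8 and 4.

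Of 19 tested genes of purine and thymidylate synthesis, which use the one-carbon units, 7 rose and 0 fell in AA, and 12 were not called (median 0.35). Impdh2, which commits nucleotides to guanine, had 71.0, 69.3 and 71.6 CPM in AA and 19.5, 20.7 and 16.9 CPM in DMSO, with log2 fold change 1.84 (SE 0.15) and limma adjusted p = 1.76e-05. Gart, whose enzyme takes a formyl group from the folate that Mthfd1 makes, had a log2 fold change of 1.03 (SE 0.13), and Prps1, which makes the ribose donor, one of 1.10 (SE 0.21). These 3 calls held with the library-set term. On equalised library medians 5 rose and 1 fell.

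The methionine cycle, which takes methyl groups from folate, had 1 of 14 tested genes higher, 3 lower and 10 not passing (median -0.15), or 0 higher and 6 lower with library medians equalised. Mat2a, which makes S-adenosylmethionine, had 425, 496 and 542 CPM in AA and 861, 962 and 1031 CPM in DMSO, with log2 fold change -0.97 (SE 0.15) and limma adjusted p = 0.00125. Bhmt2, a homocysteine methyltransferase, had one of -0.95 (SE 0.15). Ahcy, which clears S-adenosylhomocysteine, had 220, 174 and 210 CPM in AA and 512, 564 and 249 CPM in DMSO. Its log2 fold change was -1.05, or -0.31 against DMSO replicate 3 alone (limma adjusted p = 0.36 with the library-set term). Mtrr, which reactivates methionine synthase, was the higher gene (0.63), a call lost with library medians equalised (limma adjusted p = 0.158).

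Of 17 tested genes of glycine and serine breakdown, 0 rose and 4 fell in AA, and 13 were not called (median 0.01). On equalised library medians 7 fell. Dao, the D-amino acid oxidase, had 200, 211 and 216 CPM in AA and 380, 472 and 363 CPM in DMSO, with log2 fold change -0.94 (SE 0.14) and limma adjusted p = 0.000882. Sardh, which takes a one-carbon unit from sarcosine in mitochondria, had one of -0.76, Grhpr, the glyoxylate reductase, one of -0.80, and Glyctk, a glycerate kinase named after its values were seen, one of -0.59. With the library-set term only Dao of these 4 was called. No called member belonged to the glycine cleavage system. Gldc, its decarboxylase, had 19.6, 56.6 and 23.7 CPM in AA and 18.7 ± 1.11 CPM in DMSO (SD, n = 3), highest in AA replicate 2; it too is named after its values were seen.

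Of 11 tested genes of folate uptake, storage and the cytosolic cycle, 1 was higher and 1 lower, or 1 and 4 with library medians equalised. Ftcd, which feeds one-carbon units from histidine breakdown, had 39.2, 42.7 and 82.6 CPM in AA and 13.9, 28.4 and 26.8 CPM in DMSO (log2 fold change 1.20, limma adjusted p = 0.0141). Slc19a1, the reduced folate carrier, had 40.4, 39.0 and 44.0 CPM in AA and 68.8, 91.1 and 58.2 CPM in DMSO (-0.78, limma adjusted p = 0.00665). Neither call held with the library-set term. The list of mitochondrial folate and serine carriers had 7 tested genes, among them the enzyme genes Mthfd2l and Mtfmt, which are not carriers. Of the 7, 0 were higher and 1 was lower, Sfxn2 (log2 fold change -0.44, limma adjusted p = 0.045). Its call was also lost with that term, and its difference against DMSO replicate 3 alone was -0.42. Of 9 tested genes of serine-consuming lipid synthesis 3 were higher and 0 lower, led by Serinc3 of the serine incorporator family (1.12, SE 0.15) and followed by Sptlc2, a subunit of serine palmitoyltransferase (0.58), and Serinc1 (0.62). With library medians equalised 1 was higher and 3 were lower.

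**Figure D5:**
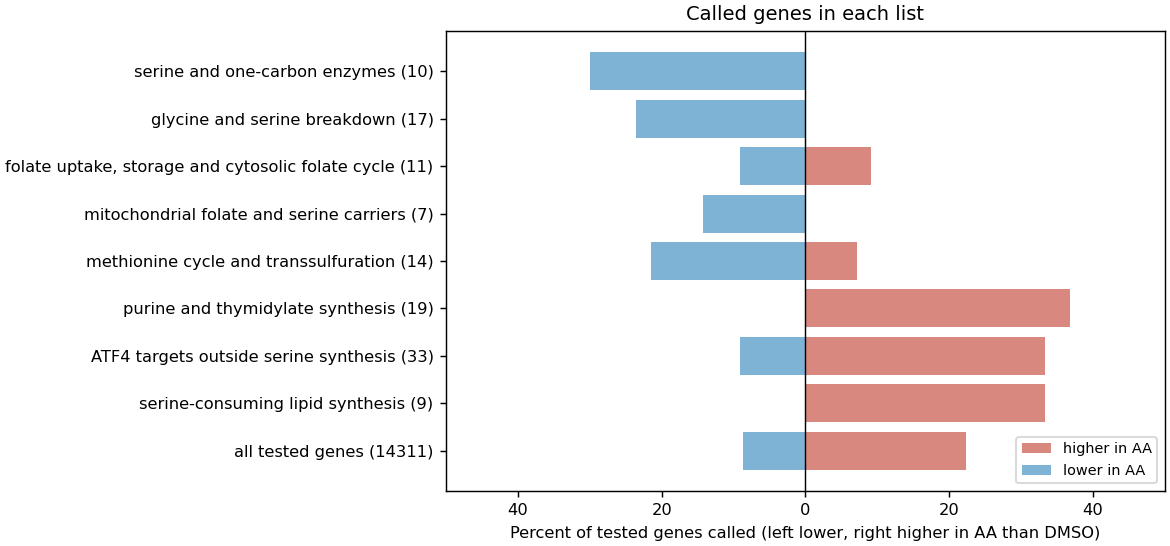
Percent of tested genes called lower (left) and higher (right) in AA than in DMSO for each list, with the number tested in brackets, and the same for all tested genes. The 10 serine and one-carbon enzymes had 3 lower and 0 higher calls, and purine and thymidylate synthesis had 7 higher and 0 lower. Of all tested genes 8.66% were called lower and 22.3% higher. The list of mitochondrial carriers also holds the enzyme genes Mthfd2l and Mtfmt.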

How the data were processed

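Polyadenylated RNA of 6 libraries was made with a TruSeq Stranded mRNA kit, per the labels' protocols. Per the submitters' processing notes, bcl2fastq 2.19 and kallisto (role and version not given) were used, and the build was mm10. Annotation and strand setting are not given there.

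A single table of log10 values was deposited by the authors, read here from the values themselves as log10(CPM + 1): undone, each column sums to the total of CPM, and 100% of values above 0 are whole multiples of 1 read within 0.1 read. The design had assumed logged CPM without its base; values were logged again as log2(CPM + 1). Symbols written as dates numbered 27, and 4 rows shared a symbol with another; all stayed in.

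The 14311 genes reaching 1 CPM in 3 or more libraries were tested with limma 3.58.1 (variance trend, R 4.3.3), two-sided, with Benjamini-Hochberg adjustment over all of them; SE is the moderated standard error. The script was tested on simulated counts. Ratios within libraries were tested by exact permutation. No set test was run. Members, lists, tests and alternatives, among them the term that sets DMSO replicates 1 and 2 apart, were chosen with earlier results of these data known. Named genes were all members, Mthfd2l, Atf4, the 3 called genes with the smallest adjusted p per list and direction, and the 3 most alike genes. Depth limits precision most for Mthfd1l. Gene positions and exonic lengths came from GENCODE M21 by symbol, promoters from RefSeq.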

Additional observations from a re-analysis of the deposited data

How the results depend on the processing

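The lower calls of Phgdh, Shmt2 and Aldh1l2 held under every alternative run except the library-set term, which left 1 lower member (Phgdh); it rests on DMSO replicate 3 as the only control. Lower members numbered 5 with library medians equalised and with TMM factors, and 3 to 4 when each library was left out; higher members numbered 0 to 1 then, the 1 being Psat1 without AA replicate 3. The Phgdh adjusted p ran from 0.00413 to 0.0374 over all alternatives. Reversed values, of which none was called, were Psph at -0.11 with medians equalised and -0.049 with TMM factors, and Mthfd2 at -0.58 with the library-set term and -0.20 to 0.80 when libraries were left out. The Mthfd1l over Mthfd1 ratio difference ran from -0.020 to 0.34 when libraries were left out. The other 5 ratios kept their direction under the 8 alternatives run on each, but Aldh1l2 over Aldh1l1 was -0.44 with a pseudocount of 5, and Mthfd2 over Mthfd2l ran from -0.61 (without DMSO replicate 2) to -0.18 (without DMSO replicate 1, and -0.19 without DMSO replicate 3). Over all genes, calls numbered 4426, with 1481 under the library-set term and 2645 (without AA replicate 2) to 3980 when libraries were left out. Higher and lower calls were 3187 and 1239 as deposited, 1606 and 2422 with medians equalised and 1889 and 2095 with TMM factors. The cause of these shifts was not tested. Deviations of same-numbered libraries from their group means had r = -0.11, -0.16 and -0.02, and differently numbered ones had r from -0.07 to 0.19. With 3 libraries per group such values cannot exclude a pairing by number, and none is given in the labels. The replicate block left 3813 calls and the same count of 3 lower members. With a filter of 4 CPM Mthfd1l was not tested. Depth was least for Mthfd1l (32 to 83 reads per library), and Aldh1l2 (44 to 503), Psph (71 to 214) and Mthfd2 (110 to 273) were also thinly counted.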

Other observations

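Within the DMSO group the ATF4 targets were not level. Of 33 tested targets outside serine synthesis, 21 (63.6%) were highest in DMSO replicate 3 among the 3 DMSO libraries, against 33.3% of all tested genes, and 19 (57.6%) were lowest in DMSO replicate 2, against 25.9%. Of the 10 enzyme genes 4 (40%) were highest in DMSO replicate 3 and 4 lowest in DMSO replicate 2, the same 4 in both: Phgdh, Psat1, Mthfd1l and Mthfd2. Mthfd2 had the widest spread of them, at 9.67, 3.53 and 17.1 CPM in DMSO replicates 1, 2 and 3. Among the targets outside the serine pathway, 4 that followed this order are named after their values were seen. Trib3, a pseudokinase, had 3.16, 1.46 and 3.09 CPM in AA and 1.17, 0.353 and 3.95 CPM in DMSO. Chac1, a glutathione-degrading enzyme, had 3.23, 1.18 and 0.862 CPM in AA and 3.60, 0.450 and 3.82 CPM in DMSO. Atf5, an ATF4-related transcription factor, had 17.1, 15.4 and 16.9 CPM in AA and 24.7, 17.8 and 98.6 CPM in DMSO replicates 1, 2 and 3. Asns, the asparagine synthetase, had 10.97, 12.7 and 14.5 CPM in AA and 24.4, 12.5 and 30.5 CPM in DMSO. On values as deposited, none of the 4 passed between AA and DMSO (limma adjusted p = 0.397 for Trib3, 0.657 for Chac1, 0.108 for Atf5 and 0.0859 for Asns). With library medians equalised Asns was called lower (log2 fold change -0.95, limma adjusted p = 0.0343), while Trib3, Chac1 and Atf5 were not called. Against DMSO replicate 3 alone, the highest control for all 4, the differences were -0.51 for Trib3, -0.90 for Chac1, -2.51 for Atf5 and -1.21 for Asns. The AA libraries were close together for Mthfd2, Atf5 and Asns, while the DMSO libraries were not. These are descriptions of 3 control libraries, and no test was run on them.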
